A study of Mus musculus with 12 samples.

Results

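The genes described here are 54 extracellular matrix genes of fibroblasts, named by hand. Their peaks are the accessible regions that overlap the gene body or the 10 kb on either side of it in the GENCODE M21 annotation of mouse genome build mm10 (GRCm38). Of the 176680 peaks in the deposited table, 734 belonged to these genes, and 1 of them, at the shared start of Col4a1 and Col4a2, lay in the windows of 2 genes. A gene had between 2 and 71 peaks, with a median of 10.

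Chromatin accessibility was measured by ATAC-seq, in which the Tn5 transposase cuts open DNA and inserts sequencing adapters, so that open regions collect reads. Primary mouse embryonic fibroblasts (MEFs) of wild-type C57BL/6N embryos at embryonic day 13.5 were plated on collagen, transduced with lentivirus and kept in doxycycline, and 12 libraries in 4 groups of 3 were made on day 2. All groups carried rtTA, the transactivator that doxycycline switches on. MEF libraries had rtTA alone, and Prox1_OE libraries had rtTA with FLAG-tagged mouse Prox1. The 4in1_GFP_OE and 4in1_Prox1_OE libraries carried rtTA and 4in1, a vector of transcription factors for reprogramming fibroblasts towards hepatocytes, together with GFP or with FLAG-tagged mouse Prox1, each under a tetO promoter. Prox1 encodes a homeodomain transcription factor of hepatocytes. The analysed table compares the last 2 groups, thus 6 libraries, and the MEF and Prox1_OE groups were not analysed here. The study's methods describe the fibroblasts as pooled from the limbs of several embryos, and nothing in the labels says that the 3 replicates came from separate pools. No selection for transduced cells is described for these libraries, so cells with and without the vectors may be mixed, and a smaller number of accessible cells and a lower accessibility per cell cannot be told apart in such bulk samples.

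Fibroblasts build and renew the extracellular matrix of connective tissue. They secrete fibrillar collagens, which are folded with the help of a dedicated chaperone and crosslinked by lysyl oxidases, and they deposit elastic microfibrils, proteoglycans and adhesive glycoproteins around them. Matrix metalloproteinases and their inhibitors then remodel the network, and high expression of these genes is a hallmark of the mesenchymal state.

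The question the comparison addresses is what Prox1, added to the 4in1 factors, does to accessible chromatin at an early time of reprogramming. Each peak has the authors' mean of normalized reads in each group as a log2 value, called its concentration. A difference is the log2 value in 4in1_Prox1_OE minus that in 4in1_GFP_OE, so a negative difference means lower accessibility with Prox1. The deposited values are group means without values per library. Therefore no difference below has a replicate error or a test, and a peak is counted as lower or higher when its difference reaches 1 on the log2 scale, which is 2-fold. The reads per library are unknown.

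The windows with the widest spread of values are shown first, all 201 bases long and written from the plus strand of GRCm38. Capitals mark matches to short words for transcription factor motifs on either strand, which are described with the motif results. The 3 lowest differences among matrix gene peaks whose mean concentration reached the median of all peaks lay upstream of Timp2, which encodes an inhibitor of metalloproteinases, in an intron of Nid1, which encodes the basement membrane linker nidogen, and downstream of Fbn1, which encodes the microfibril protein fibrillin.
Timp2 upstream, chr11:118361177-118361377: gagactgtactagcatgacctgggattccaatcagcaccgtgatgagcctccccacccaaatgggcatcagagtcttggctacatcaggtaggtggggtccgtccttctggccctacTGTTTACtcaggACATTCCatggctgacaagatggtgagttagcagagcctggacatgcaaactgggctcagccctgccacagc
Nid1 intron, chr13:13475098-13475298: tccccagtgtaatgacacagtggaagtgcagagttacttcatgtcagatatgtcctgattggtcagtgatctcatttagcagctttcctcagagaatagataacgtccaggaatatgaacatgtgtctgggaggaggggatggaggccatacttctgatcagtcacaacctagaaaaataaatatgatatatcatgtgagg
Fbn1 downstream, chr2:125290573-125290773: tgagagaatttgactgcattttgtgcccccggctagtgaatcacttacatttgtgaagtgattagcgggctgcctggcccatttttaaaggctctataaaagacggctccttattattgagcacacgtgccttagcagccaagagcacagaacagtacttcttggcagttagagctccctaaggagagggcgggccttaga

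The Timp2 window had 464 mean normalized reads with GFP and 97.7 with Prox1, a difference of -2.25. The Nid1 window had 277 and 63.5 reads, and the Fbn1 window 266 and 62.5 reads, with differences of -2.12 and -2.09. Among all peaks with a mean concentration within 0.25 of theirs, 0.029% had a lower difference than the Timp2 window, 0.181% than the Nid1 window and 0.248% than the Fbn1 window. As these windows were picked as the lowest of the matrix gene peaks, small shares follow in part from the choice. The Timp2 window holds the word TGTTTAC of the FOXA motif and the word ACATTCC of the TEAD motif, and none of the searched words was found in the others.

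In the opposite direction, the highest difference at this strength belonged to a window 23830 bp downstream of the Loxl3 start, which is the start region of the neighbouring gene Dqx1 and is given below without its bases. The next highest of the windows shown by rule lay downstream of Thbs2, in an intron of Eln and downstream of Col6a1. These genes encode a thrombospondin, elastin and a chain of type VI collagen.
Thbs2 downstream, chr17:14661308-14661508: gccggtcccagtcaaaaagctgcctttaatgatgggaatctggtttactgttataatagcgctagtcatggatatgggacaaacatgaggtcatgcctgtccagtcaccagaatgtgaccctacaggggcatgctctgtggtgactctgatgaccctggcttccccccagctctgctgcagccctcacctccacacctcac
Eln intron, chr5:134735071-134735271: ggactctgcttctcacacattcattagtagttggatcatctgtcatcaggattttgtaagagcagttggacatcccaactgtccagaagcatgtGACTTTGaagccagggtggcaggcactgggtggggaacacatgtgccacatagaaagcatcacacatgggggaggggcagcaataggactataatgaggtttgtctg
Col6a1 downstream, chr10:76700710-76700910: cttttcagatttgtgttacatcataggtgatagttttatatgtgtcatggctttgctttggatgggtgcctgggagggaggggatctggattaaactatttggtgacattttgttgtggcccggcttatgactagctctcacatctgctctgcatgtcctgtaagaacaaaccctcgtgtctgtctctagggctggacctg

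Reads in the Thbs2 window were 50.5 with GFP and 203 with Prox1, those in the Eln window 51.4 and 187, and those in the Col6a1 window 57.6 and 162. Their differences were 2.01, 1.86 and 1.49. The capitals in the Eln window mark GACTTTG, the reverse complement of the HNF4 word CAAAGTC. As a contrast, the promoter of Lamc1, which encodes the laminin gamma 1 chain, is the most accessible of the windows that start a matrix gene, with 843 and 779 reads and a difference of -0.11.
Lamc1 upstream, chr1:153332929-153333129: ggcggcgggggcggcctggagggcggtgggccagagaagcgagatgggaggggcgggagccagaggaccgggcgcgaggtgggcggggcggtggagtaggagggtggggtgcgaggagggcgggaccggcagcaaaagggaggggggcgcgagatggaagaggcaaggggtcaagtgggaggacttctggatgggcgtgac

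Across the matrix genes, accessibility was lower with Prox1 at most peaks. Of the 734 peaks, 207 (28.2%) were lower by at least 1, against 24.4% of all peaks, and 39 (5.31%) were higher, against 8.33% of all peaks. The remaining 488 lay in between. Both shares of the matrix genes were near those of all peaks. A difference below 0 was seen at 576 peaks (78.5%, against 72.3% of all peaks). The median difference was -0.62 (order-statistic interval at 95% over peaks -0.66 to -0.56) with quartiles at -1.07 and -0.11, where all peaks had a median of -0.42. Peaks of 1 gene share their locus and are not replicates. The interval treats them as independent, so it may be too narrow, and it holds no spread between libraries. Summed over the 734 peaks, the group mean reads with Prox1 were 0.661 times those with GFP, and 0.751 times over all peaks.

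Since the values of all peaks were shifted below 0, the split between lower and higher peaks depends on the zero point. With the median of all peaks, -0.42, set to 0, 72 matrix gene peaks (9.81%) were lower and 72 (9.81%) higher, against 8.64% and 13.4% of all peaks. Of the matrix gene peaks past 2-fold, 50.0% were thus lower, in place of 84.1%. The same change took all peaks from 74.5% to 39.2%. The median of the matrix gene peaks relative to that of all peaks was -0.20, and 448 of the 734 (61.0%) lay below it. Which zero point is right was not tested, since it depends on the normalization of libraries that are not given singly.

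In 45 genes more peaks were lower than higher (18 with the median of all peaks set to 0), in 4 genes (Col11a1, Eln, Col6a1 and Vcan) more were higher, and in 5 genes the numbers were equal. At least 1 lower peak was found in 49 genes and at least 1 higher peak in 21. The median difference was negative in 53 of the 54 genes and below the median of all peaks in 41. The gene with a positive median was Col11a1, which encodes a minor fibrillar collagen, with a median of 0.11. Most other genes share the negative median. Of the 17139 protein-coding genes with at least 2 peaks in the same window, 48.0% had more lower than higher peaks (16.4% with the median of all peaks set to 0), 57.4% at least 1 lower and 33.9% at least 1 higher peak, 84.4% a negative median and 34.7% a median below that of all peaks. These genes had fewer peaks each, with a median of 6. Of the 29 matrix genes with at least 10 peaks, 86.2% had more lower than higher, and of the 3912 such protein-coding genes 76.2%. Medians below that of all peaks were found in 72.4% and 51.4% of them. Among the 47 genes with at least 5 peaks, the lowest medians were those of Has2 (-1.31), Timp3 (-1.20) and Col3a1 (-1.15), and the highest those of Col11a1, Fbln1 (-0.03) and Eln (-0.11).

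**Figure D1:**
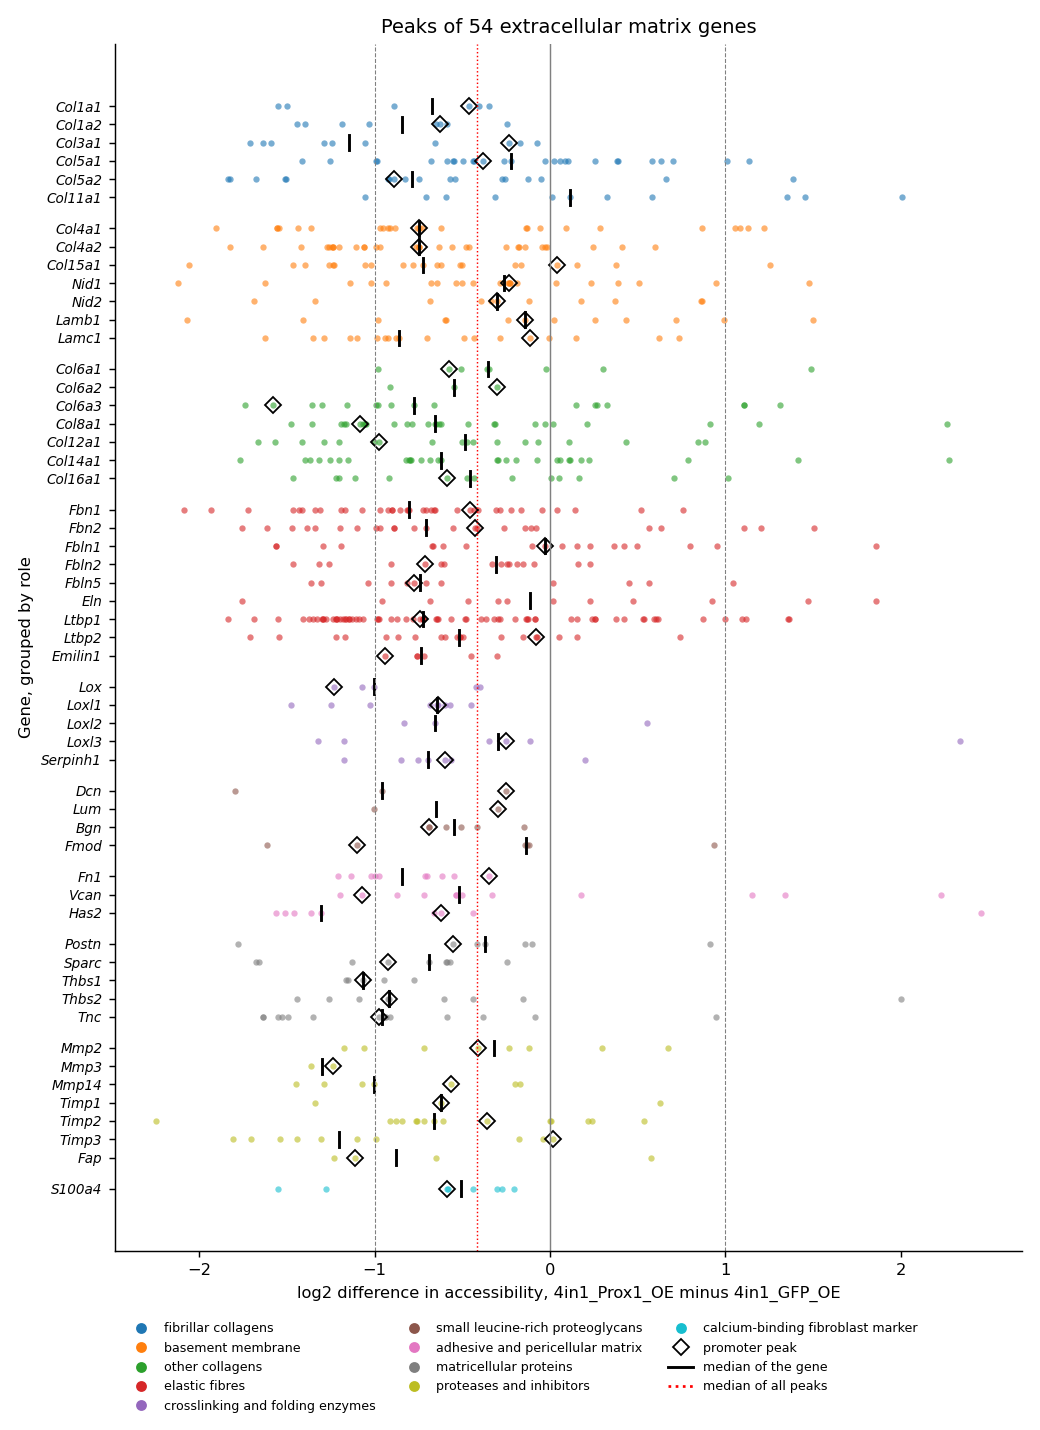
Difference in accessibility (x axis, log2, 4in1_Prox1_OE minus 4in1_GFP_OE, from group means of 3 libraries) of every peak of the 54 genes (y axis), coloured by role, with the gene median as a black bar and the promoter peak as a diamond. Dashed lines mark 2-fold and the dotted line the median of all peaks, -0.42. The black bars lie left of 0 in 53 genes and left of the dotted line in 41, and points right of the 2-fold line occur in 21 genes.

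At promoters, the matrix genes lay further below other genes than they did elsewhere, by the values that follow. The promoter peak of a gene is here the peak of highest mean concentration within 1 kb of one of its annotated starts. It was present in 50 of the 54 genes and absent in Col11a1, Col14a1, Eln and Loxl2. Because Col4a1 and Col4a2 share theirs, these were 49 distinct peaks. Of them, 8 (16.3%) were lower by at least 1, whereas 2.86% of the 13970 promoter peaks of all protein-coding genes were lower and 1.25% higher. None of the 49 was higher by at least 1. The median difference of the matrix gene promoters was -0.59 (interval over peaks -0.71 to -0.43), and that of all protein-coding promoters was -0.19. Relative to the median of all peaks, the medians were -0.17 and 0.22. On that scale 1 matrix promoter (2.04%), that of Col6a3, stayed lower by at least 1, against 0.62% of protein-coding promoters. None was higher, against 3.46% of protein-coding promoters.

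The lower promoters came from several parts of the matrix. Col6a3, which encodes a chain of the beaded type VI collagen, had the lowest difference, -1.58, at 322 mean reads with GFP and 108 with Prox1. The stromelysin gene Mmp3 followed at -1.24, with 125 and 53.0 reads, and then Lox, which encodes lysyl oxidase, at -1.23, with 548 and 233 reads. The other 5 were Fap, a serine protease of activated fibroblasts (-1.11), the proteoglycan gene Fmod (-1.10), the short-chain collagen gene Col8a1 (-1.09), the large proteoglycan gene Vcan (-1.07) and the matricellular gene Thbs1 (-1.07). At the other end, the promoters of Col15a1, Timp3 and Fbln1 had differences of 0.04, 0.02 and -0.03. The first 2 were the only promoters above 0, and the other 48 genes had a negative promoter difference, against 82.0% of the protein-coding promoter peaks. It was below the median of all peaks in 33 of the 50 genes, against 17.4% of the protein-coding promoter peaks.

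**Figure D2:**
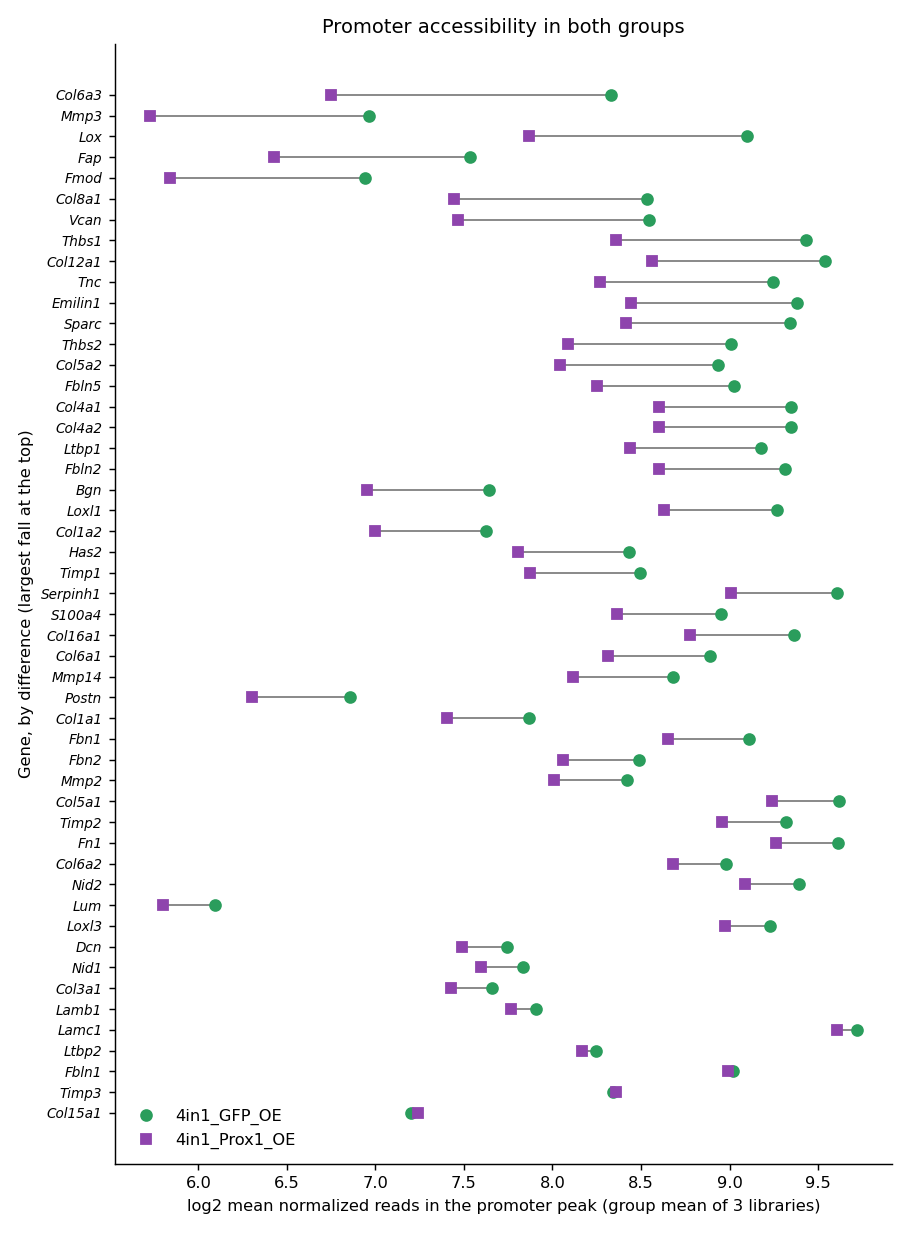
Accessibility of the promoter peak of each of the 50 genes that had 1 (x axis, log2 mean normalized reads), with a green circle for 4in1_GFP_OE and a purple square for 4in1_Prox1_OE, each the group mean of 3 libraries without an error. The square lies to the left of the circle in 48 genes (82.0% of protein-coding promoter peaks were likewise below 0), from a gap of -1.58 in Col6a3 to -0.03 in Fbln1, and the gap is wider than the median of all peaks, -0.42, in 33.

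Matrix gene promoters had a lower median GC content (61.2%) than all protein-coding promoters (66.2%) and a lower median of the log2 mean concentration (8.61 and 8.91). All protein-coding promoters were divided into 3 parts of like size by GC content. In the lowest part, up to 62.2%, 26 matrix promoters had a median of -0.76, against -0.26 for all. In the middle part, 13 had a median of -0.60 against -0.19, and in the highest part, 10 had a median of -0.37 against -0.14. The median of the matrix promoters was thus lower in each part. The same held for 3 parts by mean concentration, with medians of -0.55, -0.74 and -0.35 for 23, 21 and 5 matrix promoters, against -0.15, -0.19 and -0.21. The part of GC content in the single differences was not tested.

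Further than 1 kb from any annotated start, the matrix genes differed less from the background. Of their 642 peaks there, 190 (29.6%) were lower and 36 (5.61%) higher, against 26.7% and 9.08% of all 154465 such peaks. Their median was -0.64, and that of all such peaks was -0.49. Of the matrix gene peaks away from starts, 451 lay in introns, where 30.8% were lower. None of the 59 upstream peaks was higher, and 19 were lower, with a median of -0.72. The 53 exonic peaks were divided more evenly, with 8 lower and 7 higher and a median of -0.24. They were weak, with a median of the mean concentration of 6.29, against 6.71 for all peaks. Shares by place were not computed for other genes.

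**Figure D3:**
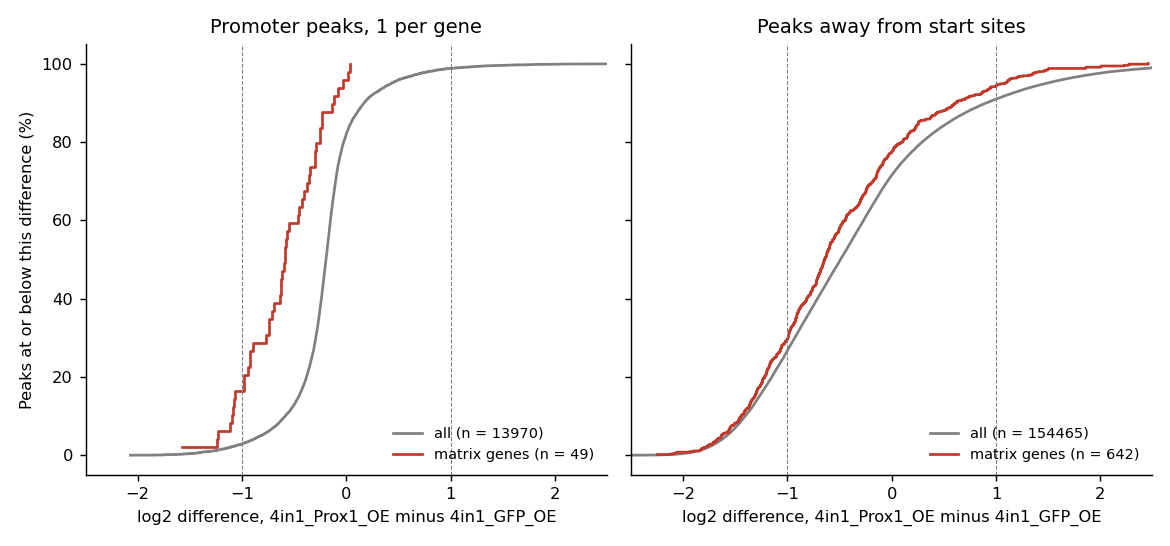
Share of peaks (y axis, percent) at or below each difference (x axis, log2, 4in1_Prox1_OE minus 4in1_GFP_OE, shown from -2.5 to 2.5), for matrix genes in red and for all in grey. At promoters (left, 49 against 13970 peaks) the red curve lies well to the left of the grey, with medians of -0.59 and -0.19, and away from start sites (right, 642 against 154465 peaks) the curves run close together, with medians of -0.64 and -0.49.

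In the roles described next, the median of each lay below that of all peaks, so its sign holds with that median set to 0, whereas single peaks and genes above -0.42 turn positive there. The shares of lower peaks in the roles stand against the 24.4% of all peaks, and the roles of 25.0% to 27.7% are near it. Fibrillar collagens, which form the tensile fibres of the matrix, had 80 peaks, of which 20 (25.0%) were lower and 6 higher, with a median of -0.52. In Col1a1 and Col1a2, which encode the chains of type I collagen, all 6 and all 8 peaks had negative differences. The Col1a1 promoter had 234 and 170 reads (-0.46), whereas a peak at -2494 bp from its start had log2 values of 9.33 with GFP and 7.83 with Prox1, and a downstream peak had a difference of -1.55. Over all peaks of Col1a1, the reads with Prox1 were 0.512 times those with GFP. Col3a1, the type III collagen gene, had 6 of 10 peaks lower and a promoter difference of -0.23. The type V collagen genes differed from each other. Col5a1 had 2 lower and 2 higher among 27 peaks, with a median of -0.22, and its highest peak above the median concentration lay in a coding exon (79.4 and 174 reads, 1.13). Col5a2 had 5 lower and 1 higher among 18 peaks, with a median of -0.79. Its lowest peak lay at -1679 bp from the start, with 175 and 49.0 reads. Col11a1 had 1 lower and 3 higher among 11 peaks, and was the only gene whose summed reads were not lower with Prox1, with a ratio of 1.01.

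Basement membrane genes, which encode the sheet that underlies epithelia and surrounds other cells, had 141 peaks, 39 (27.7%) lower and 7 higher, with a median of -0.59. The type IV collagen genes Col4a1 and Col4a2 are transcribed in opposite directions from the shared promoter, which had 650 reads with GFP and 388 with Prox1 (-0.74). On the Col4a2 side, 12 of 31 peaks were lower and none was higher. On the Col4a1 side, 6 of 25 were lower and 4 higher. The highest Col4a1 peak above the median concentration, in an intron, had 112 and 204 reads (0.87) and was not among these 4. Col15a1, a collagen of the basement membrane zone, had 8 of 21 peaks lower although its promoter had 147 and 151 reads. Nid1 and Nid2 had medians of -0.26 and -0.30. The laminin genes Lamb1 and Lamc1 had promoter differences of -0.14 and -0.11 and medians of -0.14 and -0.86, so the lower values at Lamc1 lay away from its start.

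Other collagens, which link fibrils or form networks of their own, had 116 peaks, 31 (26.7%) lower and 9 higher, with a median of -0.58. The type VI collagen genes had unlike values. Col6a3 had 5 lower peaks, the promoter included, and 3 higher among 17, whereas the 8 peaks of Col6a1 and the 3 of Col6a2 held no lower peak, and their promoters differed by -0.58 and -0.30. Col12a1 and Col14a1, which encode fibril-associated collagens, had 6 of 18 and 7 of 29 peaks lower. The promoter of Col12a1 was nearly 2-fold lower, with 743 and 378 reads (-0.98). Col8a1 and Col16a1 had 9 of 27 and 4 of 14 peaks lower.

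Elastic fibre genes held the largest number of peaks, 218, of which 58 (26.6%) were lower and 11 higher, with a median of -0.62. Ltbp1, which encodes a microfibril protein that binds latent TGF-beta, had 25 lower and 4 higher among 71 peaks. The fibrillin genes Fbn1 and Fbn2 had 11 of 37 and 7 of 25 peaks lower, with promoter differences of -0.46 and -0.43. The fibulin genes spread widely. The median was -0.74 in Fbln5, -0.31 in Fbln2 and -0.03 in Fbln1, whose promoter hardly differed (519 and 508 reads). Eln, which encodes elastin itself, had 1 lower and 2 higher among 12 peaks, and its summed reads with Prox1 were 0.977 times those with GFP. All 6 peaks of Emilin1, an elastic fibre glycoprotein, had negative differences, 4 of them in neighbouring genes, although none but the promoter (-0.94) came close to 2-fold. Ltbp2 had 4 of 20 peaks lower and a median of -0.52. The most accessible peak near a matrix gene lay downstream of it, at the start of the neighbouring gene Npc2, with 973 and 802 reads.

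The crosslinking and folding enzymes had 30 peaks, 9 (30.0%) lower and 1 higher, with a median of -0.65. Lox had 3 of 5 peaks lower, and Loxl2, a lysyl oxidase-like enzyme, had 3 peaks, none lower or higher. In Loxl1, a lysyl oxidase of elastic fibres, all 9 peaks had negative differences, and an intronic peak had 704 and 253 reads (-1.48). Loxl3 had 2 lower and 1 higher among 6 peaks. The higher peak was that at the Dqx1 start, with 72.8 and 368 reads (2.34). Of all peaks of like strength, 99.99% had a lower difference than it. Serpinh1, which encodes the collagen chaperone HSP47, had 1 of 7 peaks lower and its highest concentration at -7105 bp from the start, where reads were 903 and 536 (-0.75).

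Small leucine-rich proteoglycans, which coat collagen fibrils, had 17 peaks, 4 (23.5%) lower and none higher, with a median of -0.51. Dcn, which encodes decorin, had an intronic peak with 258 and 74.0 reads (-1.80), and its promoter differed by -0.25. Lum and Bgn, for lumican and biglycan, had promoter differences of -0.30 and -0.69 and gene medians of -0.65 and -0.55. Fmod had 2 of 6 peaks lower.

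Adhesive and pericellular matrix genes had 31 peaks, 10 (32.3%) lower and 4 higher, with a median of -0.70. All 10 peaks of the fibronectin gene Fn1 had negative differences, and its promoter had 784 and 615 reads (-0.35). Vcan had 2 lower and 3 higher among 12 peaks. Has2, which encodes a hyaluronan synthase, had the lowest median of the genes with at least 5 peaks. Of its 9 peaks, 8 had negative differences, 5 of them past 2-fold, and the other, an intronic peak, at 24248 bp from the start, had the highest difference of all matrix gene peaks, 2.46. This peak was weak, with 11.6 and 63.6 reads, and 94.3% of peaks of like strength had a lower difference.

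Matricellular proteins, secreted regulators of the contact between cells and matrix, had the lowest median of the roles, -0.92, with 16 of 44 peaks (36.4%) lower and 1 higher. All 5 peaks of Thbs1, 2 of which lie in the gene Fsip1, had differences between -1.16 and -0.78, and its summed reads with Prox1 were 0.480 times those with GFP. Tnc, for tenascin C, had 6 of 14 peaks lower and a ratio of 0.491. Sparc, for a collagen-binding glycoprotein, had negative differences at all 9 peaks, with 626 and 196 reads at an intronic peak (-1.68). Thbs2 and Postn, for thrombospondin 2 and periostin, had promoter differences of -0.92 and -0.55 and gene medians of -0.92 and -0.37. The 1 higher peak of this role was the Thbs2 window shown above.

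Proteases and inhibitors had 49 peaks, 18 (36.7%) lower and none higher, with a median of -0.72. The 2 peaks of Mmp3 were both lower, and its ratio of summed reads, 0.411, was the lowest of the 54 genes. Mmp14, which encodes a membrane-bound collagenase, had 4 of 7 peaks lower, Mmp2, for gelatinase A, had 2 of 8, and Fap had 2 of 4. Among the inhibitor genes, Timp3 had unlike values within its locus. All 10 of its peaks lie within the gene Syn3, so they cannot be assigned to Timp3 alone. Its promoter had 324 and 328 reads, and an intronic peak 2530 bp from the start had a difference of -0.04, whereas 6 of its 10 peaks, in introns or downstream, were lower by 1.10 to 1.81 on the log2 scale. Timp1, whose 3 peaks all lie within Syn1, and Timp2 each had 1 lower peak. S100a4, a calcium-binding protein used as a fibroblast marker, had 2 of 8 peaks lower and none higher. All 8 overlap neighbouring genes, the lowest (-1.55) S100a3, so they cannot be assigned to S100a4 alone.

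**Figure D4:**
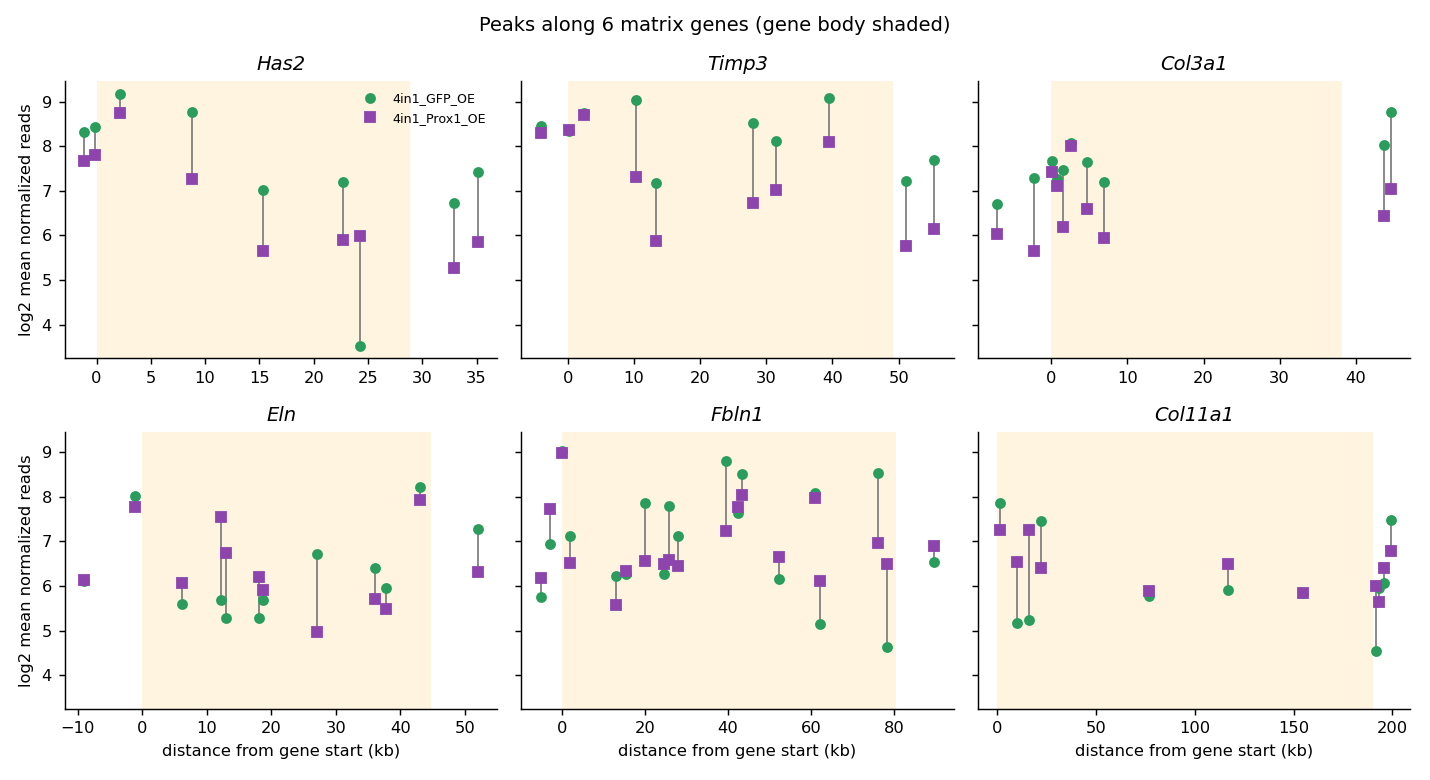
Accessibility (y axis, log2 mean normalized reads) of each peak against its distance from the gene start in the direction of transcription (x axis, kb). The genes are the 3 with the lowest and the 3 with the highest gene median among those with at least 5 peaks. Green circles mark 4in1_GFP_OE, purple squares mark 4in1_Prox1_OE, and the gene body is shaded. In Timp3 the symbols of the peaks near the start nearly coincide while 6 others are lower by at least 1, in Has2 5 of 9 peaks are lower by at least 1 and 1 is higher, and in Eln, Fbln1 and Col11a1 peaks of both directions alternate.

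The 207 lower peaks had a median log2 concentration of 7.62 with GFP and 6.19 with Prox1. The 39 higher peaks had medians of 5.28 and 6.55, and 32 of them lay below the median concentration of all peaks, against 73 of the 207 lower peaks. Since the classes are cut from the difference between the groups, their levels in either group depend in part on that cut and are given as a description only. Of the higher peaks, 36 lay away from any start. All peaks were divided into 4 equal parts by mean concentration, and 16.5% of matrix gene peaks were lower in the weakest part (all peaks 17.4%), then 29.1% (27.2%), 36.7% (31.8%) and 27.1% in the strongest (21.2%). Higher peaks made up 15.7% of matrix gene peaks in the weakest part (all 20.9%) and 0.833% in the strongest (all 0.297%). In 4 parts by GC content, the shares were 35.3% (all 37.0%), 40.3% (31.2%), 24.5% (20.96%) and 15.5% (6.88%) from low to high. The share of lower matrix gene peaks was thus above that of all peaks in the upper 3 parts and below it in the GC-poorest part. How far strength or GC content accounts for single values was not tested.

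Every window was also scanned, in both orientations, for short words of known motifs. The AP-1 word, TGACTCA or its reverse complement TGAGTCA, is bound by the Fos and Jun factors and was present in 141 matrix gene peaks (19.2%, against 23.0% of all peaks). It was found in 32.9% of the lower, 13.7% of the in-between and 15.4% of the higher peaks, and the shares for all peaks were 38.5%, 18.5% and 14.6%. Of the matrix gene peaks with the word, 48.2% were lower, with a median of -0.98, and of those without it 23.4% were lower, with a median of -0.54. Over all peaks the shares were 40.8% and 19.5%. The 3 matrix gene peaks of lowest difference with this word, chosen after the values were seen, lay in introns of Lamb1, Col4a2 and Dcn, which had 280 and 66.6, 460 and 130, and 258 and 74.0 reads. The first run of capitals in the Dcn window, AACCACA, is the reverse complement of the RUNX word.
Lamb1 intron, chr12:31292445-31292645: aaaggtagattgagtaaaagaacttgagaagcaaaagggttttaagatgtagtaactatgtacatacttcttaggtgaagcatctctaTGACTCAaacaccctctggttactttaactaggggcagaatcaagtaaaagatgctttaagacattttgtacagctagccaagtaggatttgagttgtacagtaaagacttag
Col4a2 intron, chr8:11372171-11372371: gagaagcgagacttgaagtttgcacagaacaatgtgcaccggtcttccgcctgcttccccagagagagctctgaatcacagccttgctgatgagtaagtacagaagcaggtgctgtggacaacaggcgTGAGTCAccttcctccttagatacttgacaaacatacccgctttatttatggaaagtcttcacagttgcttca
Dcn intron, chr10:97516555-97516755: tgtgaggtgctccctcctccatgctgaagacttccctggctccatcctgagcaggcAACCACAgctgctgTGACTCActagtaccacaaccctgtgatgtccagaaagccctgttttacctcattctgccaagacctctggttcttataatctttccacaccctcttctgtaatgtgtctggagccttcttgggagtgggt

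The other words were rarer. The TEAD word ACATTCC was present in 11.3% of matrix gene peaks and in 7.69% of all peaks, and in 12.6% of the lower, 10.7% of the in-between and 12.8% of the higher matrix gene peaks, the last being 5 of 39. The shares for all peaks were 11.004%, 6.57% and 7.10%. Matrix gene peaks with the TEAD word had a median of -0.70, and all peaks with it -0.71. The RUNX word TGTGGTT was found in 35 matrix gene peaks (4.77%, against 6.49% of all), with a median of -0.99 where all peaks with the word had -0.59. The HNF4 words CAAAGTC or CAAAGTT were found in 42 (5.72%, against 5.56%), with medians of -0.90 and -0.58. The FOXA words TGTTTAC or TATTTAC were present in 34 (4.63%, against 4.75%) and the GATA word AGATAAG in 16 (2.18%, against 1.74%). Their medians were -0.73 (all -0.42) and -0.56 (all -0.64). The CTCF word CCANNAGNNGGC, for the insulator protein, was present in 34 matrix gene peaks (4.63%, against 6.18% of all), whose median was -0.16, near the -0.17 of all peaks with the word. It was found in 1.45% of the lower against 6.15% of the in-between matrix gene peaks, and in 1.39% and 8.32% of all such peaks. A word is a match of letters and not evidence of binding, and the contrasts were not tested.

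**Figure D5:**
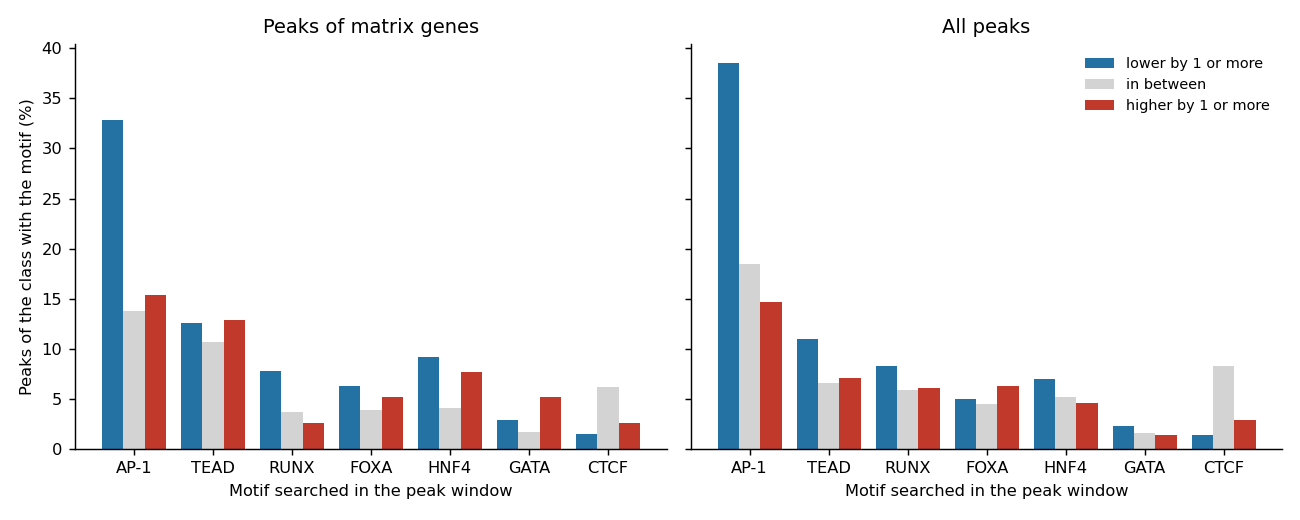
Share of peaks that hold each motif word (y axis, percent of the class) by motif (x axis), for peaks lower by at least 1 in blue, in between in grey and higher by at least 1 in red, in matrix genes (left, 207, 488 and 39 peaks) and in all peaks (right). The AP-1 word is most frequent in lower peaks on both sides, 32.9% and 38.5%, and the CTCF word in the in-between peaks, 6.15% and 8.32%.

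A second list of 32 matrix genes, which holds further collagens, laminins, processing enzymes and small proteoglycans, gave values closer to the background. Of its 362 peaks, 85 (23.5%) were lower and 28 (7.73%) higher, and the median was -0.45. In 20 of these genes more peaks were lower than higher, in 3 more were higher, and in 9 the numbers were equal. Among all protein-coding genes with at least 2 peaks, 48.0% had more lower and 14.2% more higher peaks. All 32 had a promoter peak, and the median promoter difference was -0.34, against -0.19 for all protein-coding promoters. Of these promoters, 2 (6.25%, against 2.86% of protein-coding promoters) were lower by at least 1. They were those of the microfibril gene Mfap5 (-1.28) and the matrix protein gene Ecm1 (-1.23). None was higher, against 1.25% of protein-coding promoters, and 93.75% were below 0, against 82.0%.

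The labelled cell type was compared with promoter accessibility of marker genes. All 8 fibroblast markers had a promoter peak, with log2 values from 7.28 to 9.43 with GFP and from 7.03 to 9.06 with Prox1. Their summed reads were 3973 with GFP and 2829 with Prox1, with differences from -1.27 in Prrx1 to 0.20 in Thy1. None of the hepatocyte genes Alb, Ttr, Apoa1 and Tat had one. For other cells that an embryo's limb could supply, a promoter peak was found in 3 of 4 endothelial, 1 of 4 blood, 4 of 4 epithelial and 2 of 4 skeletal muscle markers. The defining blood genes Ptprc, Spi1 and Itgam and the endothelial gene Cdh5 had none. With GFP and with Prox1, summed reads were 823 and 590 over the endothelial markers and 437 and 308 at the 1 blood marker, Cd68. They were 729 and 848 over the epithelial markers, where the members went in different directions, with differences of 1.00 in Epcam, 0.13 in Cdh1, -0.02 in Grhl2 and -0.76 in Krt8, and 104 and 199.9 over the muscle markers. Protein-coding genes had 13970 distinct promoter peaks, so the presence of such a peak alone does not identify a cell type. Summed over these 13970 peaks, the reads with Prox1 were 0.865 times those with GFP. The part of cell composition in the matrix gene differences was not tested.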

How the data were processed

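ATAC-seq reads were processed by the authors. Per the submitters' processing notes and the study's methods, reads were trimmed (Trimmomatic 0.38), aligned to mm10 (Bowtie2 2.3.4.3), filtered (SAMtools 1.10, Picard 2.18.16, bedtools 2.27.1) and counted in consensus peaks with DiffBind 3.4.11. The caller is uncertain, since MACS2 2.1.2 and Genrich are each named in different places. The concentrations were deposited by the authors as log2 values of mean normalized reads over both groups or within 1 group of 3 libraries. Of the windows, 176672 are 201 bases wide. DiffBind was run as its vignette for that version describes, with no scaling setting named in the methods, and the depth per library is unknown. The fold changes, p-values and FDR of the authors' own comparison, and the 2 peak lists of its calls, were not used.

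Differences were computed from the group means in Python 3.11.15 with pandas 2.3.3 and numpy 2.4.6, and sequence was read from GRCm38.p6. Genes, starts and exons came from GENCODE M21. All 54 genes matched by symbol. Scripts were tested on simulated data. Without values per library there was no test, no paired or left-out replicate, and no search for duplicated or divergent libraries. The genes, lists and motif words were chosen with earlier results of these data known.

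Peaks were named by rule, namely the lowest and highest difference per role at or above the median concentration, the 5 of highest concentration, the 3 lowest and 3 highest promoters, and the 3 lowest and 3 highest gene medians among genes with at least 5 peaks. Windows shown by rule were the 3 lowest, the 3 highest and the most concentrated among those that overlapped no annotated untranslated exon. Windows on chromosome 18 were not shown. Further peaks named in the text were chosen after their values were seen.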

Additional observations from a re-analysis of the deposited data

How the results depend on the processing

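With the median of all peaks set to 0 and with both groups scaled to equal totals, the lower matrix gene peaks numbered 72 and 75 (207 as deposited), the higher 72 and 72 (39), the lower promoters 1 and 1 (8), the genes with more lower than higher peaks 18 and 19 (45), and the lower peaks of the second list 31 and 31 (85). The lower matrix gene peaks were then 9.81% and 10.2%, against 8.64% and 8.80% of all peaks. The higher were 9.81% and 9.81%, against 13.4% and 13.3%. The lower promoters were 2.04% and 2.04%, against 0.62% and 0.64% of protein-coding promoters. The medians under these settings were -0.20 and -0.21 for all matrix gene peaks, -0.17 and -0.17 for promoters and -0.23 and -0.23 away from starts. A window of 50 kb, which holds 1236 matrix gene peaks, gave 357 lower and 72 higher, and 139 of 664 lower in the second list. The shares of all peaks, 24.4% lower and 8.33% higher, do not change with the window. A threshold of 1.5-fold gave 387 lower (52.7%, against 42.4% of all peaks) and 72 higher (9.81%, against 13.4%), 26 lower promoters (53.1%, against 10.1% of protein-coding promoters) and 152 lower in the second list. Without the 25% of peaks of lowest concentration, 186 of 607 matrix gene peaks were lower and 19 higher, and the median away from starts was -0.70. Adding 10 reads to each group mean brought it to -0.58. The gene body alone, with 566 matrix gene peaks, gave 156 lower and 32 higher and 36 genes with more lower peaks, and peaks outside other protein-coding genes gave 193, 38 and 41. A 2 kb promoter window gave 8 lower promoters. No median of these groups changed sign under the settings run. Single peaks and gene medians between -0.42 and 0 turn positive once the median of all peaks is set to 0. No paired analysis was possible because the deposited columns are group means without replicate values, and for the same reason no replicate was left out. These means also give no error for any peak, so from them alone small differences cannot be separated from the spread between libraries. The p-values of the authors' own comparison were not used.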

Other observations

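Within the second list of matrix genes, a few loci stood apart from its median of -0.45, and they were named after their values were seen. Ccn2, which encodes a matricellular growth factor also known as Ctgf, had 3 of 4 peaks lower by at least 1 and a median of -1.21. Ecm1 had 3 of 6 lower with a median of -1.09, and Aspn, for the small proteoglycan asporin, had 5 of 9 lower with a median of -1.03. Lama2, for a laminin alpha chain, had 14 lower and 5 higher among 36 peaks. The promoter of the microfibril-associated gene Mfap4 was the most shifted upwards of the 32, with log2 values of 6.82 with GFP and 7.75 with Prox1, a difference of 0.93.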
